A study of Mus musculus with 16 samples.

Results

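LA mice given desipramine were compared with LA mice given saline, on the 8 hippocampus arrays whose titles name the LA line, out of 16 in the series. Of these, 4 arrays carried RNA of the desipramine (DMI) group and 4 that of the saline group, and no other array entered a group mean. The LA and HA lines are male Swiss-Webster mice bred for low and high swim stress-induced analgesia, the loss of pain sensitivity that follows a swim. DMI was injected at 7.5 mg/kg/day for 21 injections, saline was given in the same way, and tissue was taken 2 days after the last injection, at a labelled age of 15 weeks. The treatment text attached to the saline arrays also speaks of desipramine, so the groups follow the array titles. The hippocampi were dissected, and the methods describe every hybridised sample as a pool of several animals. The other 8 arrays, of HA mice under the same 2 treatments, served only to estimate the spread and to compare the lines.

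Desipramine is a tricyclic antidepressant that blocks the noradrenaline transporter, which returns the transmitter to the axons of the locus coeruleus. The hippocampus receives those axons, and its adrenergic receptors act through cAMP and calcium. The hippocampus lies against the lateral ventricle, where the choroid plexus, an epithelium that secretes cerebrospinal fluid, is attached along the fimbria. That epithelium makes carrier proteins, growth factors and ion and water channels that neurons make little of, so its genes can be followed in RNA of the whole structure. In such bulk RNA, fewer cells of a type and less RNA per cell cannot be told apart.

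The arrays were Illumina MouseRef-8 BeadChips, read in 1 colour, with 25697 probes and values on the log2 scale. Mean signals before normalization ran from 247 to 369 on the DMI-labelled arrays and from 249 to 300 on the saline-labelled ones, and 12900 to 13886 probes were detected per array at a detection p under 0.05. Any pair of LA arrays correlated at 0.988 to 0.995 across probes, and the fourth saline array had the lowest mean correlation with the others. The median SD between arrays over 9075 genes detected on at least 4 LA arrays was 0.0988 in the DMI group and 0.118 in the saline group. Of 35 measured markers of hippocampal principal cells 29 were detected on at least 4 LA arrays. Of markers of neighbouring tissues, 35 of 46 choroid plexus genes, 22 of 34 genes of striatal projection neurons and 19 of 37 genes of thalamus and habenula were detected by the same rule.

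Most genes differed little between the labels: between the 1st and the 99th percentile, detected genes lay from -0.31 to 0.28, around a median of 0.0035. Differences are given throughout as the DMI-labelled mean minus the saline-labelled mean, and on the arrays as labelled their sign is opposite to the one in the study's text for the genes it names. The opposite sign was not particular to the LA arrays. The HA arrays as labelled showed it too, for genes such as Slc17a6 (-1.36) and Crhbp (0.79) that the text names for HA. Had the titles of the LA DMI and LA saline arrays been exchanged, the sign of every LA difference given here would turn. The arrays alone do not show which assignment holds. In limma's fit 16 probes had a Benjamini-Hochberg adjusted p under 0.05, 5 of them higher and 11 lower under DMI as labelled (0.0195% and 0.0428% of all probes). Of these, 8 also differed by more than 0.5 on the log2 scale (0.0311%), 2 of them higher and 6 lower (0.00778% and 0.0233%). At an unadjusted p under 0.05 there were 1127 probes higher (4.39%) and 1104 lower (4.30%), and 41 of all these passed the limit on size, 13 higher and 28 lower (0.0506% and 0.109%). Both counts rested on single arrays. The count of 16 was 0 without the third DMI array, 0 without the second saline array and 0 with the LA arrays fitted alone, 5 without the fourth saline array, 6 without any one of the other DMI arrays and 54 without the third saline array. It was 2 with median scaling and 4 with the replicate number as a block. The count of 8 was 0 in the same 3 fits and 30 without the third saline array. None of the 16 probes passed in all 8 fits that left out 1 LA array, and those that passed in most of them, 6 of 8, were Ttr and Zfp330.

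**Figure D1:**
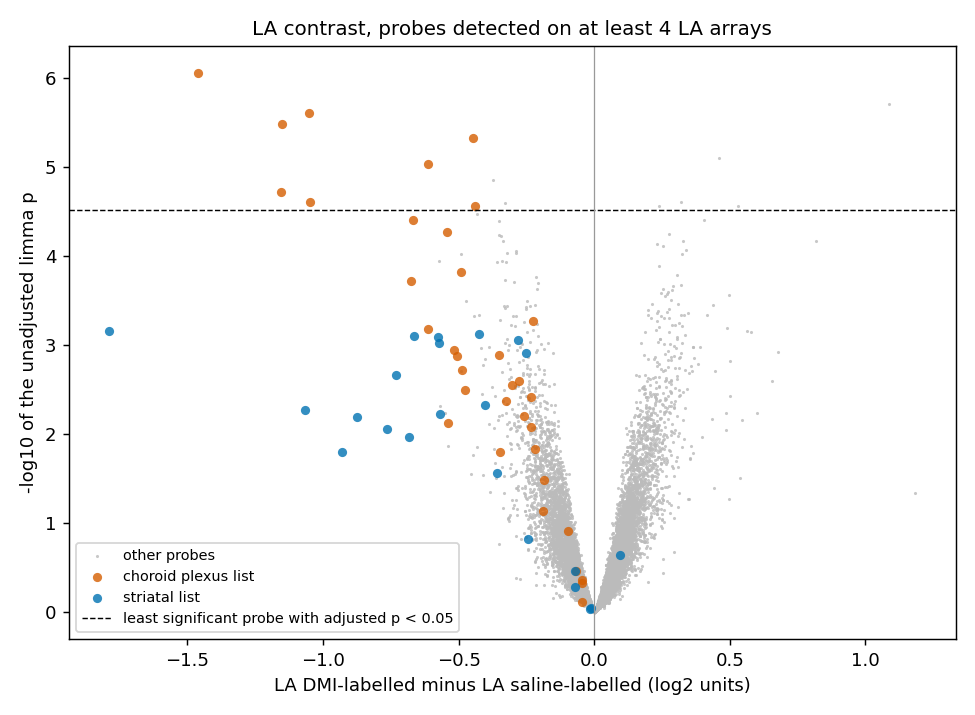
Each point is a probe detected on at least 4 LA arrays, with the DMI-labelled minus saline-labelled difference in log2 units on the x axis and -log10 of the unadjusted limma p on the y axis. Most points above the dashed line, which marks the least significant of the 16 probes with adjusted p under 0.05, are lower on the DMI-labelled arrays. Orange points (choroid plexus list) and blue points (striatal list), each gene at its brightest probe, spread to the left.

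Genes of the choroid plexus epithelium made up much of what fell. Of 46 measured genes of this epithelium, 8 had an adjusted p under 0.05, all lower on the DMI-labelled arrays, against 10 lower among all 16596 measured genes (0.0603%). At an unadjusted p under 0.05 there were 32 lower (69.6%) and 0 higher, against 4.54% and 4.80% of all measured genes. The median difference of the 46 genes was -0.27, against 0.0020 for all measured genes, and 45 lay below 0. The study had tabulated 13 of the 46 from these same arrays. The other 33 were read on the same pools, in a list chosen with earlier results known. Neither part is thus independent evidence. Of the other 33 genes, 19 were lower at an unadjusted p under 0.05 and 0 higher, with a median of -0.19, and 2 had an adjusted p under 0.05. Over all 46, 17 did not overlap between the labels and were lower, against 1.87% of all measured genes. Leaving out any one LA array left 30 to 35 of the 46 genes lower at an unadjusted p under 0.05.

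Transthyretin (Ttr), which carries thyroxine and retinol-binding protein and is the most abundant product of the epithelium, had the largest fall among the probes past the threshold. Its 4 DMI-labelled arrays read 13.45, 12.17, 13.05 and 13.30, and its 4 saline-labelled arrays 14.52, 14.72, 13.99 and 14.58. Every DMI-labelled array was below every saline-labelled one, and the second DMI array was far below the other 3. The difference was -1.46 ± 0.20, which is 2.76-fold lower, with an adjusted p of 0.0208. Ecrg4, which encodes augurin, a secreted peptide precursor, read 7.63, 7.26, 7.50 and 7.62 on the DMI-labelled arrays and 9.12, 8.94, 8.06 and 8.50 on the saline-labelled ones. The groups did not overlap, the third saline array was the lowest of its group, and the gene fell by 1.15 ± 0.17 (adjusted p = 0.0208). Prlr, the prolactin receptor, read 7.30, 6.94, 7.07 and 7.23 against 8.55, 8.38, 7.61 and 8.21. Again the third saline array came closest to the DMI group, and the difference was -1.05 ± 0.15 (adjusted p = 0.0208).

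Enpp2, or autotaxin, the secreted enzyme that makes lysophosphatidic acid, read 11.73, 10.95, 11.31 and 11.41 on the DMI-labelled arrays and 12.81, 12.64, 11.78 and 12.37 on the saline-labelled ones. The highest DMI array and the lowest saline array lay almost together, without crossing, and the difference was -1.05 ± 0.18 (adjusted p = 0.047). Clic6, a chloride intracellular channel protein, read 7.99, 7.47, 8.07 and 8.13 against 9.48, 9.57, 8.29 and 8.94. The third saline array was again low in its group, and Clic6 fell by 1.15 ± 0.20 (adjusted p = 0.047). Igfbp2, which binds insulin-like growth factors in the fluid, read 7.47, 7.48, 7.74 and 7.47 against 8.03, 8.47, 8.07 and 8.05. Even DMI values with 1 higher one stood below all the saline values, and the difference was -0.61 ± 0.10 (adjusted p = 0.0334). A second Igfbp2 probe gave -0.57 ± 0.12 (adjusted p = 0.0773).

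A further set of probes fell by less than the limit on size, and these are channels, pores and an enzyme of fluid secretion. Cldn2, a claudin that forms cation and water pores in tight junctions, was not above background on any DMI-labelled array, where it read 6.50, 6.52, 6.46 and 6.49. The saline-labelled arrays, all above background, read 6.89, 7.12, 6.82 and 6.93. Taken against the lowest signals above background on the DMI-labelled arrays, Cldn2 was at least 1.20-fold lower there, and the fitted difference of -0.45 ± 0.07 had an adjusted p of 0.024. Car12, a carbonic anhydrase that supplies bicarbonate, read 7.46, 7.62, 7.61 and 7.42 against 8.13, 7.79, 7.84 and 8.10, with no overlap and a difference of -0.44 ± 0.08 (adjusted p = 0.047). Aqp1, the water channel of the apical membrane, read 6.54, 6.72, 6.63 and 6.69 against 7.32, 7.19, 6.94 and 6.90 at one probe. That probe was detected on 2 of the DMI-labelled and all saline-labelled arrays, with a difference of -0.44 ± 0.08 (adjusted p = 0.0488), and a brighter Aqp1 probe gave -0.67 ± 0.12 (adjusted p = 0.0510).

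Other members of the same epithelium did not pass the threshold, among them its transcription factor, its folate and klotho proteins and its bicarbonate exchanger. Otx2, the homeodomain factor that the epithelium needs to form, had a difference of -0.54 ± 0.10 (adjusted p = 0.0625), with 7.02, 6.99, 6.80 and 6.89 on the DMI-labelled arrays below 7.58, 7.73, 7.11 and 7.45 on the saline-labelled ones. Klotho (Kl), a coreceptor of fibroblast growth factors that is shed into the fluid, had -0.67 ± 0.14 (adjusted p = 0.108). The folate receptor Folr1 had -0.49 ± 0.10 (adjusted p = 0.0929), Igf2 -0.61 ± 0.15 (adjusted p = 0.164) and Sostdc1, a secreted inhibitor of BMP and Wnt signals, -0.51 ± 0.13 (adjusted p = 0.211). Folr1 was detected on 3 of the DMI-labelled and all saline-labelled arrays. Slc4a2, the chloride and bicarbonate exchanger, had -0.52 ± 0.13 (adjusted p = 0.197), and Slc29a4, a low-affinity monoamine transporter found in choroid plexus, had -0.23 ± 0.07 (adjusted p = 0.297). At the other end, Krt8 and Cox8b were detected on at least 7 of the 8 arrays and had differences of -0.07 ± 0.07 and -0.04 ± 0.14.

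**Figure D2:**
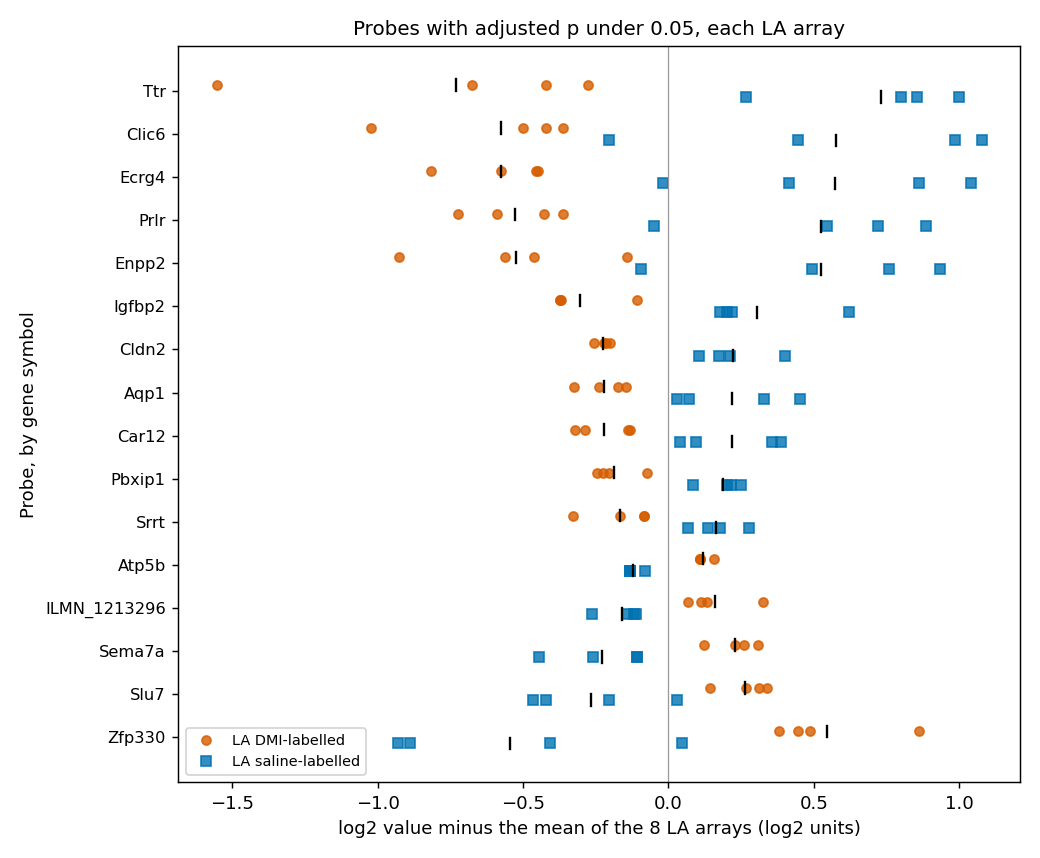
Each row is one of the 16 probes with adjusted p under 0.05 (Aqp1 at the probe that passed, ILMN_1213296 without a gene name), and each point is 1 LA array, as its log2 value minus the mean of the 8 LA arrays. Orange circles are DMI-labelled, blue squares saline-labelled and black ticks the group means. No row overlaps between the labels, and the Ttr points span the widest range, from 12.17 to 14.72 before centring.

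The summed picture of the epithelium by array showed which pools carried the difference. With each of the 35 detected choroid plexus genes centred on its mean over the 8 LA arrays, the list mean was -0.16, -0.36, -0.21 and -0.20 on the DMI-labelled arrays. It was 0.40, 0.42, -0.04 and 0.15 on the saline-labelled arrays. Of the 35, 6 were detected on all saline-labelled arrays but not on all DMI-labelled ones. The 4 DMI pools were all below the 4 saline pools, but the third saline pool was nearer to the DMI pools than to the first and second saline pools. How much of the epithelium each dissection held was not measured, so its part in the result was not tested.

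Because genes of this epithelium moved together, their promoters are shown with the core of the motif that OTX factors bind, TAATCC, searched on both strands. The RefSeq windows of GRCm38.p6 run from 250 bases before to 50 bases after each annotated start, and 38 of the 46 genes were matched to at least 1 of them. Of those 38 genes, 7 hold the core in a window (18.4%), against 8.14% of all 27025 genes with a window. Genes with several annotated starts have several windows, and counted by window the core was in 7 of 54 for the epithelium and in 7.06% of all 32851. The 7 genes are Otx2, Igf2, Ace, Vat1l, Abca4, Car14 and Mfrp, none of which had an adjusted p under 0.05. The nuclear receptor half-site AGGTCA, on both strands, was in a window of 8 of the 38 genes (21.1%) and of 18.1% of all genes. These matches describe letters in a window only. The first 3 windows below hold the core, in capitals as it reads on the printed strand (GGATTA where the core lies on the other strand), starting at -211, -79 and -61 relative to the annotated start. For Otx2 it is in 1 of 4 windows. Vat1l, a relative of the vesicle amine transport protein, had a difference of -0.54 ± 0.18 and Car14, a membrane carbonic anhydrase, -0.19 ± 0.10 (adjusted p = 0.360 and 0.618). The last pair belongs to genes that fell in the test and holds no such letters.
Otx2, chr14:48665060-48665359, minus strand: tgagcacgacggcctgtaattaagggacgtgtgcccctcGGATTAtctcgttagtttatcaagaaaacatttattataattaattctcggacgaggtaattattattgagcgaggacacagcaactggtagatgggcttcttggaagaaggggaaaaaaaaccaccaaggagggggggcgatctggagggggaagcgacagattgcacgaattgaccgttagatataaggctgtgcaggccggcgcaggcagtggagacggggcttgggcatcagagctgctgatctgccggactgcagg
Vat1l, chr8:114205390-114205689, plus strand: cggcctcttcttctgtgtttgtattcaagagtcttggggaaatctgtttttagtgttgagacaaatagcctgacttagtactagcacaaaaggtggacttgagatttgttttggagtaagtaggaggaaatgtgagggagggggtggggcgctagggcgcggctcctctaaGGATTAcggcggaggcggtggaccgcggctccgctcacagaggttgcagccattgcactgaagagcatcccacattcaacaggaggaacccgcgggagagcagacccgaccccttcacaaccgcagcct
Car14, chr3:95904636-95904935, minus strand: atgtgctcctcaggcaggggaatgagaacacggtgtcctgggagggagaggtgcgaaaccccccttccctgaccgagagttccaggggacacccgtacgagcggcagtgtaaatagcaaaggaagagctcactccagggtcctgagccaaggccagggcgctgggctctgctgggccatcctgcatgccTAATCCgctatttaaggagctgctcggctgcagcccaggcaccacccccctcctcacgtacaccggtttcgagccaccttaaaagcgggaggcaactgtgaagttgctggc
Ecrg4, chr1:43730352-43730651, plus strand: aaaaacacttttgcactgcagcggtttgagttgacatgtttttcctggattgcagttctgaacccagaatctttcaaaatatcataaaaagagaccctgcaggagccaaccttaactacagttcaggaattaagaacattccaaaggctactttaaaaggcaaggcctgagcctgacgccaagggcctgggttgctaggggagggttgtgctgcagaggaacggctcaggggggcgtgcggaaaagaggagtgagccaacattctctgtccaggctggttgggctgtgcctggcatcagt
Cldn2, chrX:139800558-139800857, plus strand: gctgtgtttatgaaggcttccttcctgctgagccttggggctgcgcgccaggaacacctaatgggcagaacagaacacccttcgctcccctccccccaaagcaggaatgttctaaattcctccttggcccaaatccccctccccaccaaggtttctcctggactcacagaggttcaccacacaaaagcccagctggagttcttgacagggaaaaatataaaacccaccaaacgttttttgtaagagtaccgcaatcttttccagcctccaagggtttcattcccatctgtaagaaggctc

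Outside the choroid plexus list, the probes past the threshold included genes of the nucleolus, of RNA processing and of energy metabolism. Zfp330, a zinc-finger protein of the nucleolus, rose from 6.48, 6.43, 7.41 and 6.96 on the saline-labelled arrays to 8.23, 7.75, 7.81 and 7.85 on the DMI-labelled ones. The probe was detected on all DMI-labelled but only 2 of the 4 saline-labelled arrays. The saline values spread over almost a log2 unit and still lay below all DMI values, and the difference was 1.09 ± 0.16 (adjusted p = 0.0208). A second Zfp330 probe, detected on all 8 arrays, gave -0.05 ± 0.06 (adjusted p = 0.889), so the rise belongs to 1 of 2 probes. Slu7, a factor of the second step of splicing, read 7.54, 7.67, 7.74 and 7.71 against 7.43, 6.93, 7.20 and 6.98. The difference was 0.53 ± 0.09 (adjusted p = 0.047) and a brighter Slu7 probe gave 0.17 ± 0.07 (adjusted p = 0.507). Srrt, which works with the nuclear cap-binding complex in RNA decay and processing, fell from 9.48, 9.34, 9.38 and 9.27 to 8.88, 9.04, 9.12 and 9.12, by 0.33 ± 0.06 (adjusted p = 0.047). Leaving out any one LA array ended this call, with adjusted p from 0.051 to 0.131. Its other probes gave -0.17 ± 0.06 and -0.20 ± 0.08 (adjusted p = 0.357 and 0.456).

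Atp5b, the beta subunit of mitochondrial ATP synthase, rose by a small amount. It read 14.31, 14.36, 14.31 and 14.31 on the DMI-labelled arrays and 14.12, 14.06, 14.06 and 14.06 on the saline-labelled ones. It is among the brightest probes, and several of its readings are identical. Quantile normalization gives equal ranks the same value, so identical readings stand for equal ranks. No array of one label reached the other, and the difference was 0.24 ± 0.04 (adjusted p = 0.047). This call too was lost whichever LA array was left out, with adjusted p from 0.052 to 0.139. Sema7a, a membrane-anchored semaphorin that promotes axon growth, rose from 9.36, 9.21, 9.36 and 9.02 to 9.69, 9.77, 9.72 and 9.59, by 0.46 ± 0.07 (adjusted p = 0.0334). A second, dimmer Sema7a probe showed -0.00069 ± 0.04 (adjusted p = 0.998). Pbxip1, which binds the PBX homeodomain factors, fell from 8.60, 8.56, 8.43 and 8.55 to 8.15, 8.28, 8.10 and 8.13, by 0.37 ± 0.06 (adjusted p = 0.0446). The remaining probe past the threshold, ILMN_1213296, has no gene name in the annotation used and rose by 0.32 ± 0.06 (adjusted p = 0.047). Just short of the threshold, all with an adjusted p of 0.0510, stood Unc13c (-0.43 ± 0.08), the second Aqp1 probe, Fam171a1 (0.40 ± 0.07) and Hsp90b1 (-0.35 ± 0.06).

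Genes that mark striatal projection neurons were the other large group on the low side, but for most of them the labels overlapped. Of 34 measured, 19 were lower at an unadjusted p under 0.05 (55.9%) and 0 higher, against 4.54% and 4.80% of all measured genes. Their median was -0.28, and 0 had an adjusted p under 0.05. The study had tabulated 11 of the 34 from these arrays, and of the other 23 genes 8 were lower and 0 higher at an unadjusted p under 0.05, with a median of -0.07. Those 23 were read on the same pools, so they are not independent evidence either. Rgs9, which speeds the end of dopamine receptor signals, read 7.22, 8.42, 7.87 and 7.89 on the DMI-labelled arrays and 10.12, 10.77, 7.90 and 9.75 on the saline-labelled ones. The first, second and the fourth saline arrays stood far above all DMI arrays, while the third saline array lay among them, and the difference of -1.79 ± 0.43 had an adjusted p of 0.167. Ppp1r1b, or DARPP-32, the phosphatase inhibitor of dopamine-responsive neurons, repeated this order with 9.10, 9.54, 9.19 and 8.92 against 10.72, 11.20, 8.91 and 10.18. Here the third saline array was the lowest of all 8, and the difference was -1.06 ± 0.33 (adjusted p = 0.336).

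The dopamine receptor Drd1 read 6.93, 7.61, 7.22 and 7.26 against 8.40, 8.72, 7.0 and 7.96, a difference of -0.76 ± 0.26 (adjusted p = 0.369). Tac1, the precursor of substance P, had -0.87 ± 0.28 (adjusted p = 0.344), and the phosphodiesterases Pde1b and Pde10a had -0.57 ± 0.14 and -0.43 ± 0.10 (adjusted p = 0.186 and 0.172). Rarb, a retinoic acid receptor of the striatum, had -0.58 ± 0.14 (adjusted p = 0.179), and a second Rarb probe -0.41 ± 0.12. In each of Tac1, Pde1b, Pde10a and Rarb the third saline array lay within the DMI range. Meis2, a homeodomain factor, and Foxp1, a forkhead factor, were 2 of the 3 list members in which the groups did not overlap, at -0.67 ± 0.16 and -0.28 ± 0.07 (adjusted p = 0.177 and 0.183). Of all measured genes, 1.87% did not overlap and were lower. The list mean over 22 detected genes was -0.34, -0.14, -0.27 and -0.27 on the DMI-labelled arrays and 0.35, 0.74, -0.30 and 0.24 on the saline-labelled ones. The groups thus overlapped, and the list median moved from -0.50 to -0.34 without the second saline array and to -0.66 without the third.

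The first 2 saline pools were high in both lists and the third was low in both, so choroid plexus and striatal genes varied together among the saline pools. Markers of thalamus and habenula varied over as wide a range, with arrays of both labels at both ends. Their list mean over 19 detected genes was 0.34, -0.15, -0.35 and -0.04 on the DMI-labelled arrays and -0.36, 0.52, -0.12 and 0.16 on the saline-labelled ones, and of 37 measured genes 0 were higher and 0 lower at an unadjusted p under 0.05. Leptomeningeal and fibroblast markers had 5 of 37 lower (13.5%, against 4.54% of all measured genes) and 0 higher. Among the 5 were Igf2 and the matrix protein Sparc. Their list mean was 0.31 on the second saline array and between -0.17 and 0.04 on the other 7. The second saline pool was thus the highest of the 8 for the striatal, thalamic and leptomeningeal lists and, narrowly, for the choroid plexus list. The part that these tissues play in the differences of single genes was not tested.

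**Figure D3:**
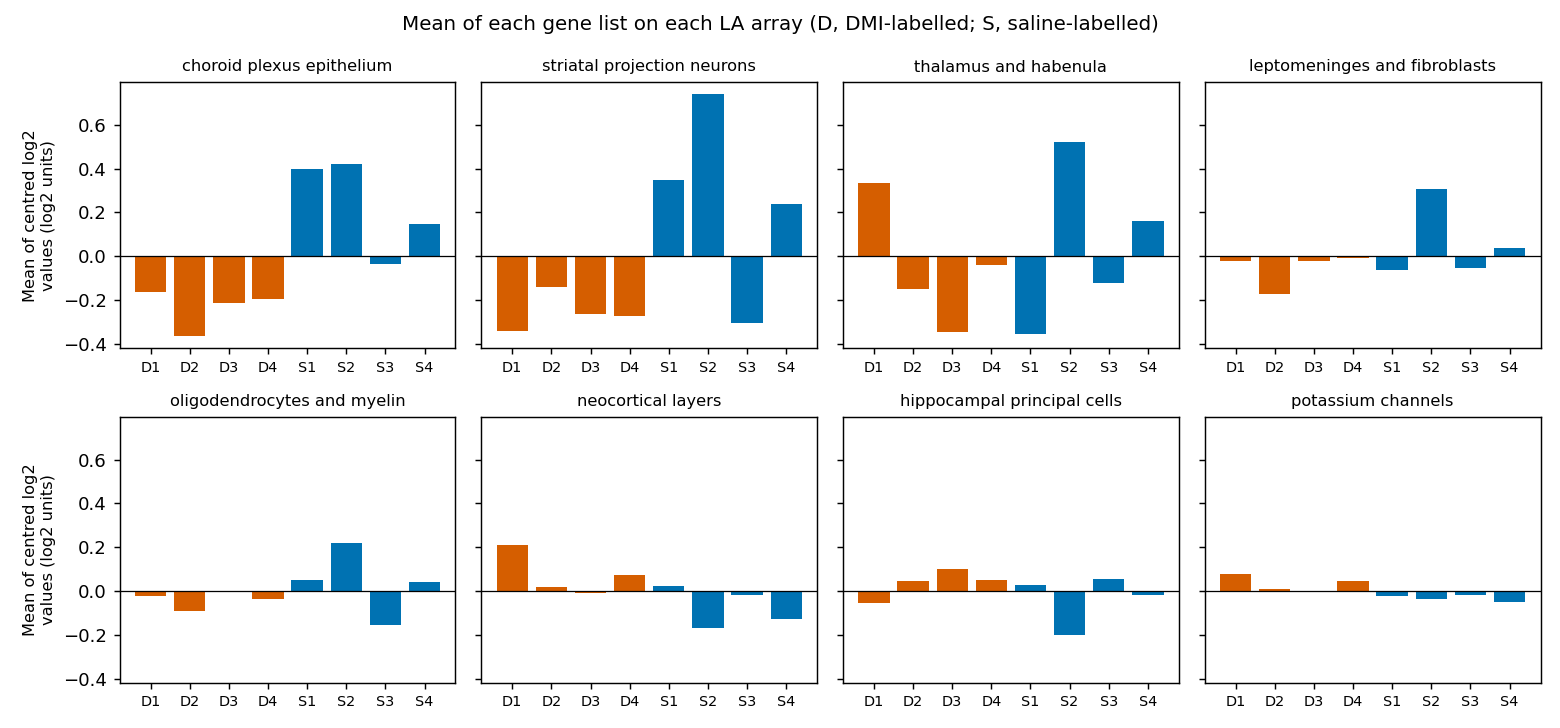
Each bar is 1 LA array (D1 to D4 DMI-labelled, in orange, and S1 to S4 saline-labelled, in blue), and its height is the mean, in log2 units, over the detected genes of a list after each gene was centred on the 8 arrays. In the choroid plexus panel all orange bars lie below all blue bars, and S3 is at -0.30 in the striatal panel where the other blue bars are at 0.24 to 0.74.

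Markers of hippocampal principal cells had few genes past the unadjusted threshold, and those of neocortical layers had a larger share higher. Of 35 measured genes of pyramidal and granule cells, 3 were higher (8.57%, against 4.80% of all measured genes) and 0 lower at an unadjusted p under 0.05, with a median of 0.04: Bok, a BCL2 family member (0.27 ± 0.07, adjusted p = 0.262), the neuropeptide Y receptor Npy1r (0.23 ± 0.07, adjusted p = 0.344) and Ociad2 (0.19 ± 0.08, adjusted p = 0.525). The median of the 29 detected was 0.07, and it was -0.01 without the second saline array. Among 25 neocortical genes 5 were higher (20%) and 1 lower (4%), against 4.80% and 4.54% of all measured genes, with a median of 0.06. Of the 5, Myl4, Cckbr and Vip were in the study's table, drawn from these arrays, and of the 22 genes outside it 2 were higher and 1 lower, with a median of 0.05. Cckbr, a cholecystokinin receptor, read 9.35, 8.02, 8.09 and 8.71 on the DMI-labelled arrays and 8.02, 7.94, 8.01 and 7.80 on the saline-labelled ones. The first and the fourth DMI arrays were high, the other DMI arrays were almost level with the highest saline arrays without crossing them, and the difference was 0.60 ± 0.19 (adjusted p = 0.338). Satb1, a chromatin organiser, had 0.36 ± 0.09 (adjusted p = 0.192) without overlap, and Myl4 0.50 ± 0.15 (adjusted p = 0.297) with a high first saline array, at 8.09 against 7.05 to 7.30 on the other 3. The neocortical list mean was 0.21 on the first DMI array, the highest of the 8.

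Lists of glia and vessels had medians near 0, with single genes that differed more. Of 30 oligodendrocyte genes 1 was higher (3.33%) and 4 lower (13.3%) at an unadjusted p under 0.05. The shares of all measured genes were 4.80% higher and 4.54% lower. Gpr17, a receptor of oligodendrocyte precursors, had 0.17 ± 0.05 (adjusted p = 0.259), while the myelin enzymes Cnp and Fa2h had -0.23 ± 0.09 and -0.28 ± 0.13 (adjusted p = 0.489 and 0.540). A second Cnp probe gave -0.09 ± 0.10 (adjusted p = 0.872). The median of the 28 detected oligodendrocyte genes was -0.07, and 0.0036 with median scaling, so its sign depends on the scaling. Astrocyte markers had 4 higher and 2 lower of 27, microglial markers 1 and 0 of 24, endothelial markers 3 and 1 of 27 (1 of the 3, Ly6a, in the study's table), ependymal and ciliary genes 0 and 3 of 18, and blood genes 1 and 0 of 19. The medians of these 5 lists lay between -0.03 and 0.02 over all measured members. Ly6a, a surface antigen of brain endothelium, had a difference of 0.58 ± 0.14 without overlap (adjusted p = 0.167), and Ramp2, a partner of the adrenomedullin receptor, 0.33 ± 0.10 with overlap (adjusted p = 0.327). Among astrocyte genes Atp1b2, a sodium pump subunit, had -0.33 ± 0.07 and the transcription factor Sox9 0.28 ± 0.09, both without overlap (adjusted p = 0.107 and 0.316).

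The transporter that desipramine blocks, Slc6a2, is made in the locus coeruleus and was at background here. It was detected on none of the DMI-labelled and 1 of the saline-labelled arrays, at 6.41, 6.54, 6.51 and 6.46 on the DMI-labelled and 6.58, 6.70, 6.59 and 6.50 on the saline-labelled arrays, and no fold is given. Of adrenergic receptors, Adra2c was detected on all 8 arrays and had -0.12 ± 0.11 (adjusted p = 0.839), with 7.60 to 8.06 on the DMI-labelled arrays overlapping 7.77 to 8.25 on the saline-labelled ones. A second Adra2c probe, also detected on all 8 arrays, gave 0.03 ± 0.08 (adjusted p = 0.960). Adra1b was detected on no LA array. Among 32 measured genes of noradrenergic and other monoamine systems 0 were higher and 5 lower (15.6%, against 4.54% of all measured genes) at an unadjusted p under 0.05. Besides Slc29a4, Drd1 and Drd2 (-0.36 ± 0.15, adjusted p = 0.488), which the choroid plexus and striatal lists also hold, these were the serotonin receptor Htr1d (-0.27 ± 0.08, adjusted p = 0.297) and the dopamine transporter Slc6a3, detected on 2 of 8 arrays.

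Downstream of these receptors, cAMP signalling had 2 of 45 genes higher and 8 lower at an unadjusted p under 0.05. These are 4.44% and 17.8%, against 4.80% and 4.54% of all measured genes. Adcy1, a calcium-stimulated adenylyl cyclase, read 10.07, 9.44, 9.74 and 9.84 on the DMI-labelled arrays and 9.45, 8.76, 9.49 and 9.14 on the saline-labelled ones. Only the second DMI array fell inside the saline range, and the difference was 0.56 ± 0.14 (adjusted p = 0.167). The cyclases Adcy2 and Adcy6 had 0.28 ± 0.08 and -0.22 ± 0.07 (adjusted p = 0.291 and 0.353). Akap9, a scaffold that holds protein kinase A at the Golgi and centrosome, read 9.32, 9.16, 9.25 and 9.26 against 9.77, 9.59, 9.38 and 9.52, without overlap, with a difference of -0.32 ± 0.06 (adjusted p = 0.0698). Its other probes gave -0.31 ± 0.07 and -0.01 ± 0.05 (adjusted p = 0.157 and 0.974). Of the other lower genes, Pde10a, Pde1b, Ppp1r1b and Arpp21 are also in the striatal list.

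In calcium signalling 4 of 70 genes were higher (5.71%) and 6 lower (8.57%), against 4.80% and 4.54% of all measured genes. Ryr3, a calcium release channel of the endoplasmic reticulum, read 8.06, 7.83, 7.87 and 7.74 against 8.46, 8.09, 8.11 and 8.61. The second and the third saline arrays were just above the highest DMI array and the other saline arrays well above, at -0.44 ± 0.10 (adjusted p = 0.141). Ncald, a neuronal calcium sensor, had 0.24 ± 0.07 (adjusted p = 0.280) without overlap, and Stim1, the sensor of store calcium, -0.20 ± 0.07 (adjusted p = 0.364). Glutamate receptors and their scaffolds had 2 of 31 higher (6.45%) and 5 lower (16.1%). They were led by the kainate receptor subunit Grik5 (-0.25 ± 0.06, adjusted p = 0.141) and the metabotropic receptor Grm8 (-0.20 ± 0.05, adjusted p = 0.186), both without overlap.

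Potassium channels had more genes higher than lower. Of 80 measured, 13 were higher (16.2%, against 4.80% of all measured genes) and 2 lower at an unadjusted p under 0.05, with a median of 0.01, and 0 had an adjusted p under 0.05. Of the 48 detected on at least 4 LA arrays, 11 were higher and 1 lower, so some of the 13 were near background. Kcnk4, the mechanically gated leak channel TRAAK, read 7.14, 7.09, 7.08 and 7.14 on the DMI-labelled arrays and 6.82, 6.71, 7.02 and 6.83 on the saline-labelled ones. All DMI values were above all saline values, and the difference was 0.27 ± 0.06 (adjusted p = 0.121). Kcnf1, a silent subunit that modifies Kv2 channels, read 8.74, 8.68, 8.48 and 8.51 against 8.25, 8.29, 8.34 and 8.20, again without overlap, at 0.33 ± 0.08 (adjusted p = 0.141). Kcns1, another silent subunit, had 0.21 ± 0.05 (adjusted p = 0.140) and was detected on all DMI-labelled and 1 saline-labelled array. The auxiliary subunits Kcnab2, Kcnab3 and Kcnmb4 had 0.40 ± 0.14, 0.31 ± 0.12 and 0.29 ± 0.09 (adjusted p = 0.385, 0.469 and 0.327). Kcne2, which the choroid plexus list also holds, was 1 of the 2 lower genes (-0.33 ± 0.10, adjusted p = 0.314). The count of 13 was 6 without the first DMI array and 8 without the second saline array, under median scaling and with array weights.

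At the synapse, differences ran both ways. In the vesicle cycle 7 of 77 genes were higher (9.09%) and 4 lower (5.19%) at an unadjusted p under 0.05, with a median of 0.0084. The shares of all measured genes were 4.80% higher and 4.54% lower. Unc13c, which primes vesicles, read 6.90, 6.91, 7.01 and 6.88 on the DMI-labelled arrays, below all saline-labelled arrays at 7.26, 7.48, 7.12 and 7.58. Stx1a, the syntaxin of synaptic fusion, read 11.37, 10.99, 10.94 and 11.18 against 10.84, 10.62, 10.90 and 10.47, without overlap, at 0.41 ± 0.10 (adjusted p = 0.141). Its partner Vamp2 had 0.23 ± 0.08 (adjusted p = 0.369), also without overlap. Among semaphorins, plexins, ephrins and netrins 4 of 65 were higher (6.15%) and 4 lower (6.15%). Beside Sema7a, Sema5a had 0.50 ± 0.13 (adjusted p = 0.220) and Sema6d -0.35 ± 0.07 (adjusted p = 0.0625), both without overlap, and Sema3f -0.35 ± 0.11 (adjusted p = 0.344). Other Sema6d probes gave -0.05 ± 0.07 and -0.01 ± 0.06.

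Neuropeptides and their receptors had 5 of 58 genes higher (8.62%) and 4 lower (6.9%), against 4.80% and 4.54% of all measured genes. Crhbp, which binds and inactivates corticotropin-releasing hormone, read 9.51, 9.36, 9.17 and 9.37 on the DMI-labelled arrays and 8.93, 8.41, 9.16 and 8.97 on the saline-labelled ones. The groups met at the third DMI and the third saline arrays without crossing, and the difference was 0.49 ± 0.12 (adjusted p = 0.164). Cort, the precursor of cortistatin made in interneurons, had 0.33 ± 0.08 (adjusted p = 0.172) without overlap, and Vip, the interneuron peptide, 0.54 ± 0.18 (adjusted p = 0.354) with overlap. In the insulin-like growth factor system 3 of 18 genes were higher (16.7%) and 3 lower (16.7%). Opposite to Igfbp2 and Igf2, Igfbp4 had 0.50 ± 0.11 (adjusted p = 0.125), at 9.71, 9.53, 9.78 and 9.75 against 9.57, 8.94, 9.39 and 8.90, where only the first saline array reached the DMI range. A second Igfbp4 probe gave 0.21 ± 0.11 (adjusted p = 0.606). The receptor Igf1r had -0.17 ± 0.05 (adjusted p = 0.316).

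Genes tied to plasticity and to new neurons had few members past the unadjusted threshold. Against 4.80% and 4.54% of all measured genes, 1 of 31 immediate early genes was higher (3.23%) and 3 lower (9.68%) at an unadjusted p under 0.05. These were Jund (0.21 ± 0.07, adjusted p = 0.341), Nr4a3 (-0.12 ± 0.05, adjusted p = 0.504), Egr2 (-0.11 ± 0.05, adjusted p = 0.540) and Homer1 (-0.21 ± 0.09, adjusted p = 0.533). Homer1 at its other probes had 0.04 ± 0.12, 0.03 ± 0.07 and -0.0014 ± 0.06, the first 2 detected on all 8 arrays. Among 36 genes of neural progenitors and immature neurons 2 were higher and 2 lower. Mcm6 and Pcna, of DNA replication, had 0.26 ± 0.08 and 0.15 ± 0.06 (adjusted p = 0.341 and 0.505), and Dpysl3, which guides neurite growth, had -0.42 ± 0.11 (adjusted p = 0.194). The other Mcm6 probes, also detected on all 8 arrays, gave 0.05 ± 0.07 and 0.03 ± 0.08 (adjusted p = 0.902 and 0.961). Neurotrophins and growth factors had 2 of 24 higher and 0 lower, and the stress hormone axis with the glucocorticoid response 3 higher and 1 lower of 27. In retinoid and thyroid hormone handling 2 of 28 were higher (7.14%) and 5 lower (17.9%). Of the 5, Ttr, Rdh5 (-0.30 ± 0.09, adjusted p = 0.280), Rarb and Rxrg (-0.29 ± 0.09, adjusted p = 0.333) are in the lists above. Rxrg, of the striatal list, was detected on 0 of the DMI-labelled and 3 of the saline-labelled arrays.

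In mitochondria the import machinery and the ribosome had 11 of 99 genes higher (11.1%) and 2 lower (2.02%), with a median of 0.03. The shares of all measured genes were 4.80% higher and 4.54% lower. Mrps26 and Mrpl17, of the small and large mitochondrial ribosomal subunits, had 0.28 ± 0.09 and 0.24 ± 0.08, and Timm50, of the inner membrane translocase, 0.19 ± 0.06 (adjusted p = 0.325, 0.364 and 0.351), all 3 without overlap. A second Mrps26 probe gave 0.12 ± 0.09 (adjusted p = 0.790). The outer membrane receptor Tomm22 had -0.54 ± 0.20 (adjusted p = 0.411). Without the fourth saline array the median of the 88 detected genes of this list was -0.0010 in place of 0.04. The respiratory chain had 4 of 87 higher, among them Atp5b and Cyc1 (0.22 ± 0.08, adjusted p = 0.407), and 0 lower. Splicing factors had 4 of 82 higher (4.88%) and 6 lower (7.32%). Sf3a1 was at 0.24 ± 0.05 and Snrpn at 0.26 ± 0.06 (adjusted p = 0.0835 and 0.146), both without overlap. The other lists had these members past an unadjusted p of 0.05, given as higher and lower of those measured. The proteasome had 5 and 1 of 40, histones 0 and 5 of 65, heat shock proteins and chaperones 2 and 5 of 73, and cytosolic ribosomal proteins 2 and 1 of 67. Interneurons had 3 and 3 of 29, GABA receptors 1 and 0 of 19, sodium channels and pumps 1 and 2 of 16, solute carriers 1 and 3 of 46, and smooth muscle and pericytes 1 and 1 of 19. Glycolysis had 1 and 1 of 17, cholesterol synthesis 2 and 0 of 19, interferon response 2 and 1 of 30, MHC class I genes 2 and 1 of 38, the clock 1 and 1 of 21, and the study's reference genes 0 and 0 of 8.

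**Figure D4:**
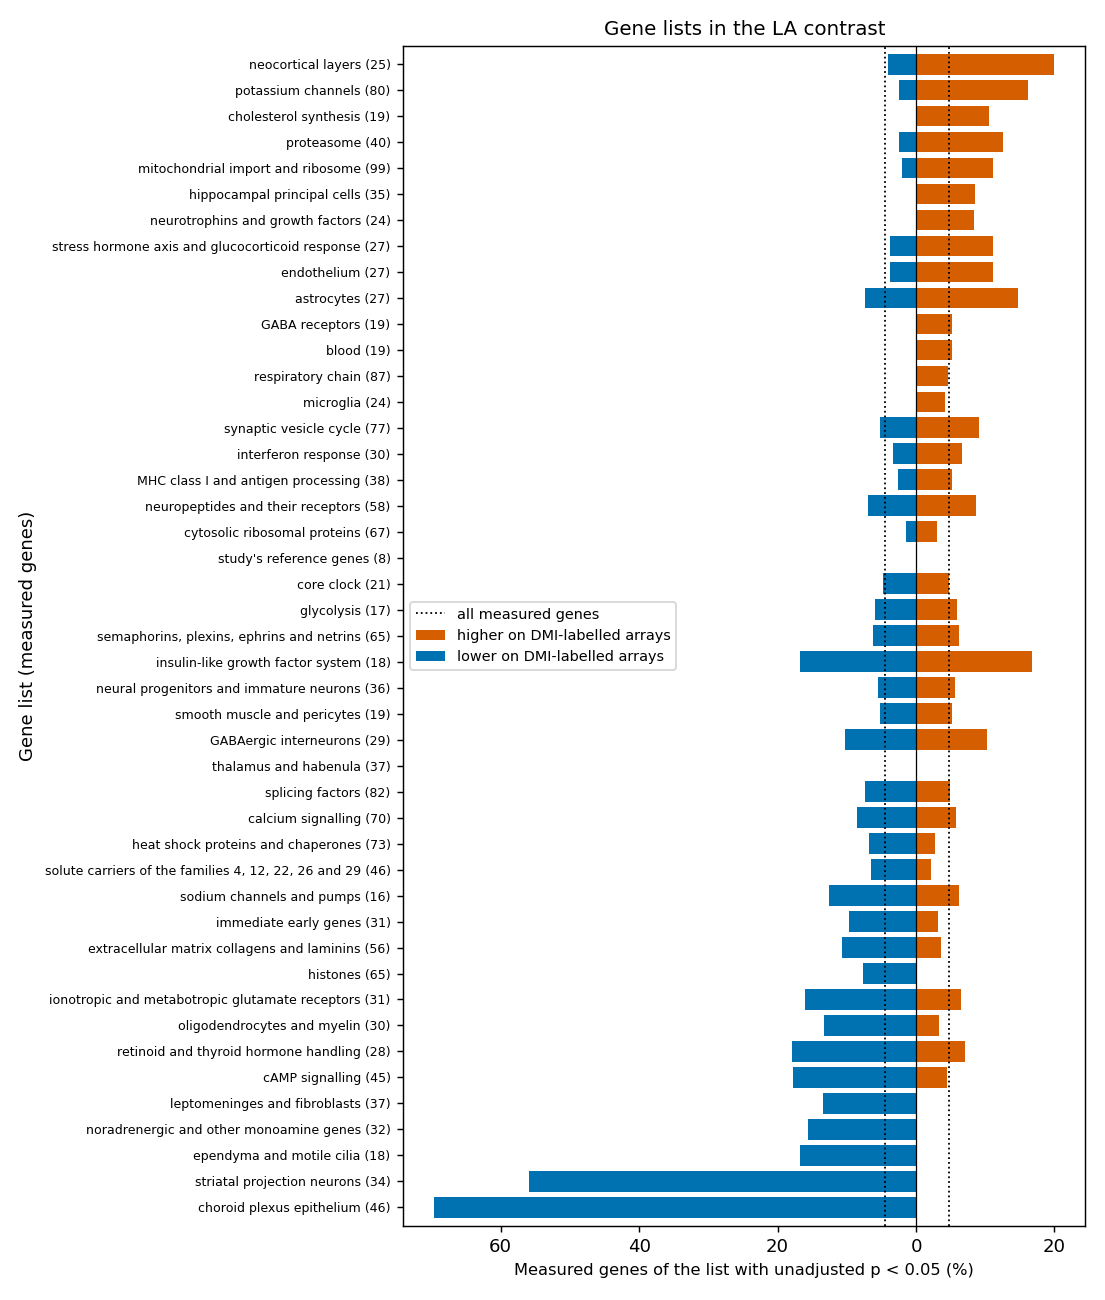
Each row is a gene list with its number of measured genes in brackets, and bars give the percentage of these with unadjusted p under 0.05, lower on the DMI-labelled arrays to the left (blue) and higher to the right (orange). Dotted lines mark the share of all measured genes, 4.54% lower and 4.80% higher. The choroid plexus list reaches 69.6% and the striatal list 55.9% on the left.

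Beyond the probes that the study tabulated, 454 probes were detected on all 8 LA arrays, did not overlap between the labels and had an unadjusted p under 0.05, 279 higher and 175 lower on the DMI-labelled arrays. Detection on all 8 LA arrays held for 11015 probes. Over all 25697 probes, detected or not and at any p, non-overlap alone was seen in 2.08% higher and 1.87% lower. Those shares do not apply the filters of the 454 and cannot be set against them. The 12 highest of the 454 had differences from 0.35 to 0.49 and the 12 lowest from -0.35 to -0.47. The study's table, left out here, holds 41 probes, 13 higher and 28 lower. Those counts equal the counts of all probes past the size limit of 0.5 at an unadjusted p under 0.05. The sizes of the 454 were thus limited by the filter. Among the 12 highest, Gng2, a G protein gamma subunit, read 8.32, 8.58, 8.40 and 8.41 on the DMI-labelled arrays and 7.85, 8.05, 8.31 and 7.94 on the saline-labelled ones, at 0.39 ± 0.10 (adjusted p = 0.192). Scn2b, an auxiliary subunit of sodium channels, had 0.38 ± 0.10, Atp6v1g2, a subunit of the vesicular proton pump, 0.37 ± 0.10 (a brighter probe 0.01 ± 0.05), and Nt5c, a cytosolic nucleotidase, 0.45 ± 0.12 (adjusted p = 0.233, 0.214 and 0.249). The transcription factor Zbtb17 (0.36 ± 0.10), Znhit2 (0.35 ± 0.08) and Fndc10 (0.35 ± 0.10) completed this side beside Crhbp, Sema7a, Stx1a, Fam171a1 and Satb1.

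The 12 lowest include genes of the extracellular matrix. Sparc, a secreted matrix glycoprotein, read 9.76, 9.83, 9.79 and 9.77 on the DMI-labelled arrays and 9.94, 10.98, 9.97 and 10.06 on the saline-labelled ones. The second saline array lay far above the other 7, and the difference was -0.45 ± 0.17 (adjusted p = 0.436). A second Sparc probe gave -0.24 ± 0.13 (adjusted p = 0.646). Timp2, an inhibitor of matrix metalloproteinases, read 9.90 to 10.03 on the DMI-labelled arrays against 10.12, 10.65, 10.19 and 10.63 on the saline-labelled ones, with the second and the fourth saline arrays high, at -0.42 ± 0.10 (adjusted p = 0.141). Col4a2, a basement membrane collagen, had -0.36 ± 0.07 (adjusted p = 0.0773), and in the list of matrix genes, which holds Sparc and Col4a2 but not Timp2, 2 of 56 were higher (3.57%) and 6 lower (10.7%) at an unadjusted p under 0.05, against 4.80% and 4.54% of all measured genes. Ivns1abp, which binds actin, had -0.47 ± 0.11, the ATP receptor P2ry1 -0.39 ± 0.10 and Ahctf1, a nuclear pore protein, -0.35 ± 0.08 (adjusted p = 0.138, 0.192 and 0.151). Ryr3, Car12, Unc13c, Pbxip1, Hsp90b1 and Sema6d, given above, make up the rest of the 12 lowest.

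**Figure D5:**
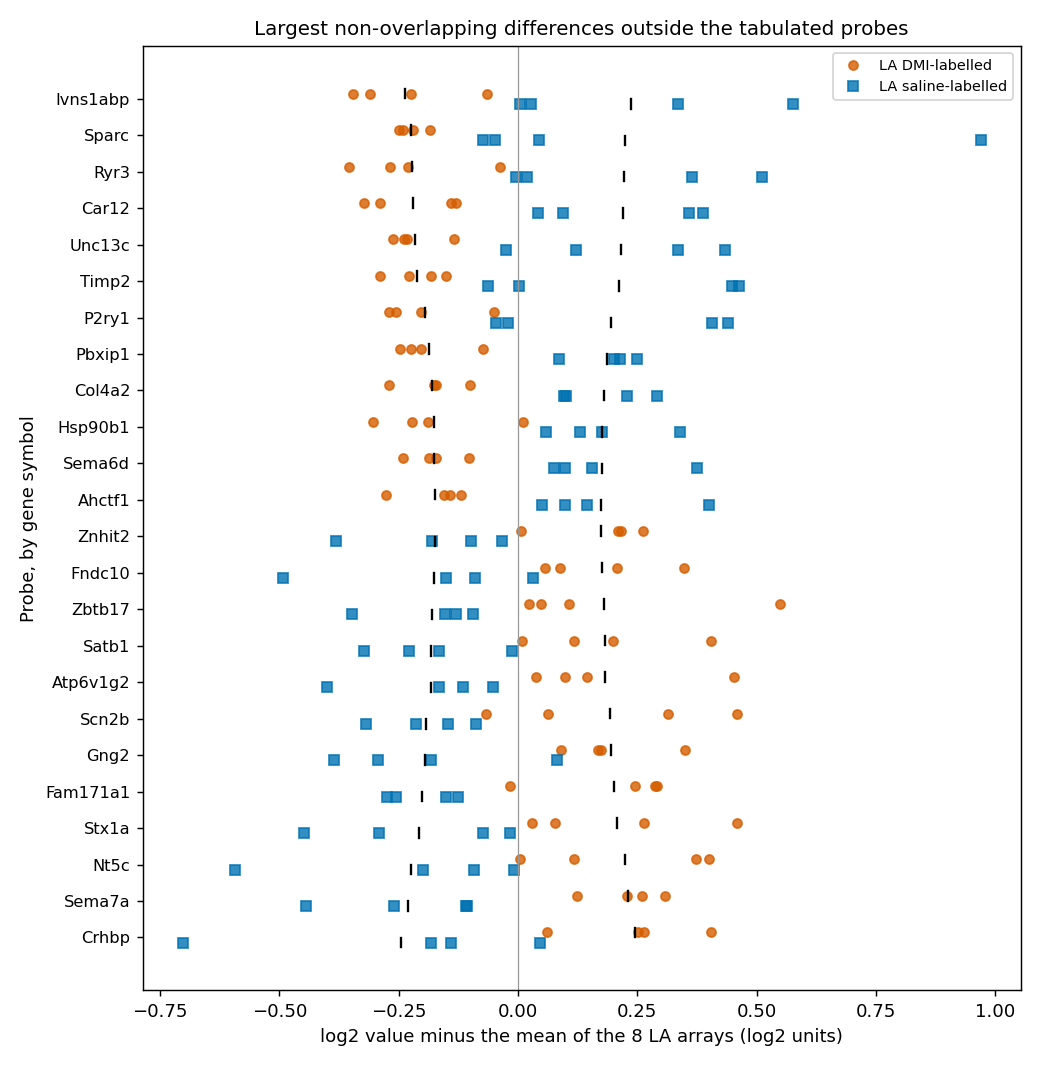
Each row is one of the 24 genes with the largest differences among the 454 probes, with 1 point per LA array as its log2 value minus the mean of the 8 LA arrays. Orange circles are DMI-labelled, blue squares saline-labelled and black ticks group means. The Sparc row shows 1 saline array apart from the other 7, and in Stx1a, Scn2b and Nt5c the points of the 2 labels almost touch.

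Some of the largest mean differences were also among the least even. Csrp1, a LIM-domain protein, read 9.04, 9.49, 10.02 and 9.65 on the DMI-labelled arrays and 7.60, 6.72 and 9.16 on the first, the second and the fourth saline-labelled arrays. Its saline SD of 1.49 was the largest of all detected genes, the third saline array lay within the DMI range and near its top, and the difference of 1.18 ± 0.55 had an adjusted p of 0.562. In the DMI group the largest SD, 0.852, was that of Tnnt1, a troponin of the thalamic list, which was high on the first DMI and second saline arrays. Of 2393 genes with 2 or more detected probes, 9 had probes of opposite sign with either an adjusted p under 0.05 at one of them or an unadjusted p under 0.05 on both sides. They include Zfp330 and Sema7a, given above.

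Whether the LA differences departed from those of the HA line was tested as the difference between the lines. None of the 16 LA probes had an adjusted p under 0.05 in that test, with values from 0.130 to 0.879, and 13 of the 16 had the same sign in both lines. The share of all probes with the same sign is not given, so the 13 cannot be set against it. For Ttr the HA difference was -0.12, for Prlr -0.40, for Clic6 -0.49, for Igfbp2 -0.40 and for Zfp330 -0.01. Over all probes 1 had an adjusted p under 0.05 for the difference between the lines (0.00389%) and 1792 an unadjusted p under 0.05 (6.97%). The 1 probe was ILMN_3062286, which has no gene name in the annotation used. It read 8.99, 9.26, 9.19 and 9.08 on the LA DMI-labelled arrays and 9.24, 9.53, 9.39 and 9.32 on the LA saline-labelled ones. Its LA difference was -0.24 and its HA difference 0.58 (adjusted p of the difference between the lines = 0.00489).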

How the data were processed

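RNA of dissected mouse hippocampus was measured on 16 one-colour Illumina MouseRef-8 arrays, 4 for each line and treatment. The deposited per-array files hold probe intensity before normalization and a detection p-value for each probe, and the value table deposited by the authors holds log2 values after quantile normalization, which were used as given. Log2 values recomputed from the signals differed from them by at most 0.0456. The sources used here give neither chip positions nor a background step. The number of arrays limits the precision.

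All 16 arrays were fitted in limma 3.58.1 (R 4.3.3) with a mean per line and treatment, without a block, and p-values were adjusted by Benjamini-Hochberg over all 25697 probes. Differences are DMI minus saline as the arrays are titled, with standard errors from the fit. A probe was detected at a detection p under 0.05, and a gene is represented in lists by its brightest probe. Of the probes, 23978 carried 1 gene symbol and 1719 none. Promoter windows came from RefSeq (GRCm38.p6). The limma fit of the LA difference was tested on simulated data.

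Named genes are probes with adjusted p under 0.05, the 12 largest rises and 12 largest falls outside the study's table (detected on all 8 LA arrays, not overlapping, unadjusted p under 0.05), up to 4 members of each list discussed by smallest p, genes with discordant probes, Slc6a2 and adrenergic receptors, and genes the study names for LA. Folr1, Slc4a2, Krt8, Cox8b, Foxp1, Vat1l, Car14, Tnnt1, Slc6a3, Adcy2, Adcy6, Arpp21, Kcnab2, Kcnab3, Kcnmb4 and Tomm22 were chosen after their values were seen. Members and lists were chosen with earlier results of these data known. Pools are counted as the replicates, and p-values measure the spread between pools. The alternatives tried were other scalings, a background correction (normexp), detected probes only, LA arrays alone, array weights, a replicate block, other priors, lists without the detection filter (chosen after seeing the data) and leaving out each LA array.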

Additional observations from a re-analysis of the deposited data

Results flagged for a closer look

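Of 350 groups of 4 arrays examined, 22 held 1 array far from the other 3 by Dixon's critical value for the gap over the group's range, and chance alone gives about 1 in 20. On the second DMI array Igf2 read 10.53 against 11.16 to 11.23 on the others, Atp5b 14.36 against 14.31, Jund 7.07 against 7.17 to 7.19 and Gatb 7.23 against 7.45 to 7.48. For Atp5b the other 3 readings were identical, as equal ranks are after quantile normalization, so the gap was the whole range. The list means of that array also stood apart for microglia (0.038), endothelium (-0.099), leptomeninges and fibroblasts (-0.172) and the insulin-like growth factor system (-0.091). On the first DMI array Fam171a1 read 6.97 against 7.24 to 7.28 and Zbtb17 9.73 against 9.20 to 9.29. On the third DMI array Igfbp2 read 7.74 against 7.47 to 7.48. On the fourth, Sf3a1 read 9.40 against 9.19 to 9.22 and Pde10a 6.99 against 6.84 to 6.86.

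Among the saline arrays the second read 8.47 for Igfbp2, against 8.03 to 8.07 on the others, and 10.98 for Sparc, against 9.94 to 10.06. The fourth read 8.28 for Prmt5 (others 8.57 to 8.60) and 9.48 for Mrps26 (others 9.73 to 9.78), and its list means were low for mitochondrial import and ribosome (-0.123) and for the proteasome (-0.054). The first read 14.12 for Atp5b (others 14.06, again identical) and 8.81 for one Mpv17 probe (others 8.70 to 8.71). The third read 11.22 for C1ql2 (others 10.98 to 11.01).

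The difference between the lines passed the test at ILMN_3062286, with an LA minus HA difference of -0.82 and an adjusted p of 0.00489 in limma.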

How the results depend on the processing

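The number of probes with adjusted p under 0.05 and a difference over 0.5 was 8. It was 2 with median scaling (both among the 8), 20 with normexp correction, 0 with the 8 LA arrays alone and 41 on unadjusted p-values. Leaving out 1 array gave 0 to 30, and the 0s were without the third DMI array (2293 probes at an unadjusted p under 0.05) or the second saline array (2229), beside 1807 for the LA arrays alone. Without the second DMI array 5 probes passed, of which 2 were among the 8. With intensity trend and robust priors 8 passed, 5 of them shared. Without the limit on size, the count of 16 was 24 with normexp (13 shared), 23 among detected probes (15), 19 with trend and robust priors (9) and 9 with array weights. The cause was not tested. Same-numbered DMI and saline arrays correlated at -0.083 to 0.138 in their deviations, and different-numbered ones at -0.165 to 0.125. So few pairs cannot show whether the numbers pair the arrays. With the replicate number as a block 3 probes passed.

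The count for the difference between the lines was 1, with 0 under median scaling, 5 under normexp, 2 among detected probes, 2 with the replicate block, 13 with trend and robust priors, and 1 to 28 without 1 array, where 28 came without the second saline array. Differences near 0 changed sign. The dimmer Sema7a probe was 0.0066 under median scaling and -0.015 to 0.021 without 1 array. The second Zfp330 probe was 0.0096 under median scaling and -0.085 to 0.0024 without 1 array, and Adra1b was -0.044 to 0.037 without 1 array. Median scaling moved the median of detected genes to 0.04, the higher share of unadjusted calls from 50.5% to 58.7%, and the median of 17 of 45 lists by more than the spread between arrays. The choroid plexus count of 32 lower genes was 25 under median scaling, and the striatal count of 19 was 13.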
